A study of Homo sapiens with 6 samples.

Results

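The mitochondrial chaperone and biogenesis genes HSPD1, HSPE1, HSPA9, TRAP1, TFAM, PHB and C1QBP were examined for MYC binding in ONS76 cells. A peak was assigned to a gene when its summit, the position with the most fragments, lay within 5000 bp of the start of that gene in hg19. These starts are fixed points that were not checked against an hg19 annotation. Distances and sides of summits and intervals are therefore relative to those points. HSPD1 and HSPE1 share 1 start point, so the 7 genes gave 6 places, which held 18 peaks over 3 replicates, out of 27801 merged places in all.

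ONS76 is an established medulloblastoma cell line, and the cells of every library carried an inducible SOX2 construct. The study's methods for the immunoprecipitation name the cells as ONS76 and do not mention the construct there. Chromatin was immunoprecipitated with the MYC (Y69) antibody in 3 libraries and with normal IgG, a non-specific antibody, in 3 others, and per the study SOX2 was not elevated for this experiment. The data describe a single line, separate immunoprecipitations of the same chromatin batch were combined, and no source used here says that replicates were separate cultures, so the SD measures the spread between libraries, which may be technical. The IgG libraries were not analysed here. The sources used here do not state the control library of the peak calling, so whether background values below come from IgG is unknown.

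MYC is a transcription factor that pairs with MAX and binds E-boxes, short DNA motifs of which CACGTG is the canonical form, often close to gene starts. Mitochondria import most of their proteins unfolded from the cytosol, and chaperones of the matrix pull them in and fold them. The remaining genes serve other steps of building the organelle, such as the packaging and transcription of mitochondrial DNA and the upkeep of the inner membrane.

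The sequences before the starts are shown for all 7 genes. A canonical E-box lies there at HSPD1 and HSPE1, which share the same site, and at HSPA9. In a longer window, 7.26% of all promoters hold one. The mean fold enrichment was 19.2 at HSPD1/HSPE1 and 16.9 at HSPA9. At the places without CACGTG before the start it was 17.3 at TRAP1, 10.4 at C1QBP, 8.41 at PHB and 6.77 at TFAM. Whether these motifs bear on fold enrichment was not tested. The sequences were taken from RefSeq promoters on GRCh38.p14, in which all 7 genes were found (PHB as PHB1), and are printed 5′ to 3′ on the strand named. HSPD1 and HSPE1 are transcribed away from each other from starts 105 bp apart, and the first sequence is the whole stretch of 104 bases between those starts (chr2:197500275-197500378, plus strand, that of HSPE1). The second is the 150 bases before the HSPA9 start (chr5:138575402-138575551, minus strand). Capitals mark CACGTG.
HSPD1-HSPE1: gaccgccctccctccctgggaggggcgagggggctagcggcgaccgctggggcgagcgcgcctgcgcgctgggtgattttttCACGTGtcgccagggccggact
HSPA9: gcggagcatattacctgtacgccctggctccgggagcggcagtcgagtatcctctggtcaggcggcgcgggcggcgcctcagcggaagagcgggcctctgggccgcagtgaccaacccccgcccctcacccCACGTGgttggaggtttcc
The 150 bases before the TRAP1 start (chr16:3717525-3717674, minus strand) hold no CACGTG, and capitals mark the variant E-box CACGCG on either strand.
TRAP1: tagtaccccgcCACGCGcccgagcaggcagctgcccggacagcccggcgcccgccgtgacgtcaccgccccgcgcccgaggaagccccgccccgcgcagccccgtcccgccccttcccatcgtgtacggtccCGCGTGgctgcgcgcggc
For TFAM, PHB and C1QBP, the 150 bases before the start hold none of the E-box forms searched. PHB holds the variant E-box CATGTG 24 bases after its start. For TFAM (chr10:58385260-58385409, plus strand) and PHB (chr17:49414883-49415032, minus strand) capitals mark the CCAAT box, and for C1QBP (chr17:5439156-5439305, minus strand) the GC box GGGCGG on either strand.
TFAM: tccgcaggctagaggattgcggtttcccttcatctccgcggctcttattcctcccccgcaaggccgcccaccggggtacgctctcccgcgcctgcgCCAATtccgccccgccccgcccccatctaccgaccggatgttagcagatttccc
PHB: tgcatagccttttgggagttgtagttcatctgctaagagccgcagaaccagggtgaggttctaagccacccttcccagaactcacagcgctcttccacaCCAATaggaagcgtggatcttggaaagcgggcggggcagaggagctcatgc
C1QBP: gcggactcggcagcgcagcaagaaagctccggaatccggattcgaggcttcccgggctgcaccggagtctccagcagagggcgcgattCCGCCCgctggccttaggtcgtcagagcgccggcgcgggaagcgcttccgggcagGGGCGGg

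Motifs were counted on both strands over the whole RefSeq window, 250 bases before to 50 after each start, and set beside 35116 promoters of the same length. CACGTG was found in 7.26% of all promoters and at HSPD1, HSPE1 and HSPA9. Its first base lay 88 bases before the HSPD1 start and 22 before the HSPE1 start, which is the same site read from either gene, and 19 bases before the HSPA9 start. CACGCG, held by 11.4% of promoters, occurred 139 and 18 bases before the TRAP1 start, 179 bases before the main HSPD1 start and 77 bases before a further RefSeq start of HSPD1 that lies 434 bp away. CATGTG, held by 11.1%, occurred once, 24 bases after the PHB start. No E-box form of these 3 was in the windows of TFAM and C1QBP. The windows of 6 of the 7 genes were richer in G and C (65.3% to 76.3%) than the median promoter (58.7%), and that of PHB was not (55.0%), and the part of this in the motif counts was not tested. The GC box was in the windows of all 7 genes and of 45.0% of promoters, and the CCAAT box (34.6% of promoters) was 54 bases before TFAM and 51 before PHB. GAANNTTC, paired units of the heat shock element, was held by 6.77% of promoters and by HSPD1 alone among the 7 genes, 240 bases before the further start. The ETS motif CCGGAAGT (4.14% of promoters) and the NRF1 motif GCATGCGC (3.05%) were in none of these windows. Only these exact strings were searched, so sites that differ from them by a base were not counted. Their absence does not show that the promoters lack ETS or NRF1 sites. These are matches of letters in GRCh38.p14, while the peaks are in hg19, so motifs and summits were not lined up base by base.

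Every gene had a MYC peak near its start in every replicate, and at 5 of the 6 places the peak covered the start in all 3. Each start had exactly 1 peak within 5000 bp in each of the 3 lists. Thus 6 of 6 places were found in all 3 replicates. Of all merged places, 45.0% (12499 of 27801) were found in all 3, a share that is not limited to gene starts. The genes here were chosen with earlier results of these data known. The counts of these 6 places are therefore descriptions and not tests against all places. A −log10 p of at least 50 in every replicate was reached by 1052 places (3.78% of 27801), and only the 12499 found in all 3 replicates could reach it. Of the 6 places here, which were all found in all 3 replicates, it was reached by 3, those of HSPD1/HSPE1, HSPA9 and TRAP1. The same 3 places, which serve the 4 chaperone genes, were also in the top 10% of the places found in all 3 replicates, which begins at a geometric mean fold of 10.5. The places of TFAM, PHB and C1QBP were not. The lists differed in size and depth. They held 24899, 16809 and 17298 peaks in replicates 1, 2 and 3, and the genome-wide background level, which is what a site would hold if fragments were spread evenly, was 7.79, 5.84 and 4.76 fragments. Fold enrichment here is a ratio of summit fragments to local background, each raised by 1, and its median over all peaks was 4.15, 4.49 and 4.78.

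HSPD1 encodes Hsp60, the chaperonin that folds proteins inside the matrix, and HSPE1 encodes Hsp10, the lid of the same chaperonin. At their shared start the fold enrichment of replicates 1, 2 and 3 was 22.4, 15.5 and 19.8, averaging 19.2 ± 3.50 (SD, n = 3). Replicate 2 was the lowest, and every value was above that of at least 98.1% of the peaks in its list. By geometric mean, the place ranked 186 of 12499, the highest of the 6. The summit held 196 fragments (95% exact Poisson interval 170 to 225), 105 (85.9 to 127) and 113 (93.1 to 136), in the same order of replicates. The local background was at the genome-wide level in all 3 libraries. The intervals were the broadest of the 6 places at 1882, 1840 and 1809 bp, wider than 98.6% to 99.3% of the peaks in their lists. The merged place was chr2:198363654-198365544, and in each replicate it reached at least 995 bp to the HSPD1 side of the shared point and at least 794 bp to the HSPE1 side. The summits lay 38, 53 and 47 bp from that point on the HSPD1 side, within 15 bp of each other. A single peak thus covered both genes, and its fragments cannot be divided between them. In RefSeq the readthrough gene HSPE1-MOB4 begins at the same base as HSPE1.

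**Figure D1:**
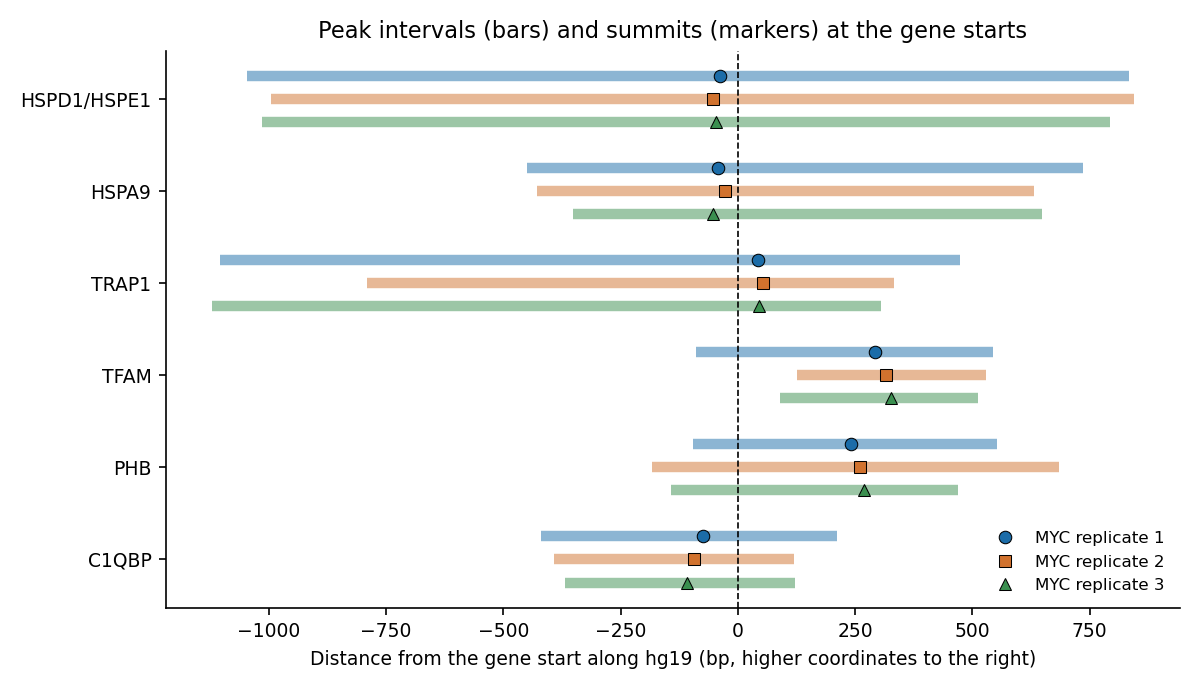
Intervals (bars) and summits (markers) of the MYC peaks in 3 replicates at the 6 starts, in bp from the start along hg19 with higher coordinates to the right. The HSPD1/HSPE1 intervals are the widest at 1809 to 1882 bp. The TFAM intervals of replicates 2 and 3 begin 127 and 89 bp past the start point used. The start points were not checked against an hg19 annotation.

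HSPA9 encodes mortalin, the mitochondrial Hsp70 that draws imported proteins into the matrix. Its fold enrichment was 17.6, 14.6 and 18.4 in replicates 1, 2 and 3, with a mean of 16.9 ± 1.99 (SD, n = 3) and rank 288 among the places found in all 3 replicates. Replicate 2 was again the lowest. The summit held 198 fragments (171 to 228), 99 (80.5 to 121) and 110 (90.4 to 133). Relative background, which sets the local background against the genome-wide level within a library, was 1.33, 1.00 and 1.06. The place, chr5:137910684-137911870, covered the start in every replicate with intervals of 1187, 1062 and 1001 bp. Its summits lay 42, 28 and 54 bp downstream of the start. The nearest other RefSeq gene start on GRCh38.p14 was that of LOC105379193, 4323 bp away.

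TRAP1 encodes the Hsp90 of mitochondria. Its fold enrichment in replicates 1, 2 and 3 was 14.9, 19.1 and 18.1, with a mean of 17.3 ± 2.20 (SD, n = 3) and rank 260. Here replicate 1 was the lowest and replicate 2 the highest, the reverse of the HSPD1/HSPE1 place. The summit held 188 fragments (162 to 217), 133 (111 to 158) and 116 (95.9 to 139), and the relative background was 1.50, 1.03 and 1.15. Divided by the genome-wide level in place of the local background, the summit fragments were 24.1, 22.8 and 24.4 times that level, a spread of 1.07 times between the highest and the lowest library against 1.28 times for the fold. The local background of replicate 1 thus moved with its lower fold, and its part in the difference between replicates was not tested. The place, chr16:3766477-3768072, extended further into the gene (1104, 791 and 1121 bp) than before it (474, 332 and 306 bp), while the summits stood 43, 53 and 46 bp upstream of the start. These summits spanned 10 bp, a closer fit than in 95.3% of the places found in all 3 replicates, whose median span was 58 bp.

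TFAM encodes the protein that packages mitochondrial DNA and activates its transcription. It had the lowest fold enrichment of the 6 places in every replicate, with 7.78, 6.29 and 6.25, and a mean of 6.77 ± 0.875 (SD, n = 3). It ranked 3879 of 12499 among the places found in all 3 replicates, whose median was 5.40. The summit held 69 fragments (53.7 to 87.3), 42 (30.3 to 56.8) and 35 (24.4 to 48.7), so its values rest on the fewest fragments. The local background was near the genome-wide level, with relative values of 1.03, 1.00 and 1.00. The summits lay 292, 315 and 327 bp downstream of the start point used, the greatest distances of the 6 places. Only the interval of replicate 1 covered the start, by 89 bp, whereas those of replicates 2 and 3 began 127 and 89 bp after it. The place was chr10:60144814-60145448, and whether it falls in an exon or an intron was not analysed here.

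PHB encodes prohibitin, which forms ring complexes in the inner membrane. Its fold enrichment was 8.36, 8.56 and 8.31, with a mean of 8.41 ± 0.132 (SD, n = 3) and rank 2285. This fold varied least of the 6 places, by 1.03 times between libraries. Over the genome-wide level its summit fragments varied by 1.11 times, more than at TRAP1 and C1QBP (1.07 times each). The summit held 112 fragments (92.2 to 135), 76 (59.9 to 95.1) and 63 (48.4 to 80.6). This place had the highest relative background of the 6 on average, 1.61, 1.37 and 1.41, above that of 81.8% to 85.2% of the peaks in each list. The other peaks within 1 Mb of the start also had raised values, with medians of 1.52 (60 peaks), 1.32 (46) and 1.34 (49). The place, chr17:47492063-47492931, covered the start in all 3 replicates, and its summits lay 241, 261 and 268 bp upstream.

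C1QBP encodes p32, a matrix protein needed for mitochondrial translation. Its fold enrichment was 10.6, 10.1 and 10.4, with a mean of 10.4 ± 0.254 (SD, n = 3) and rank 1304. The values differed by 1.05 times between libraries. The summit held 92 fragments (74.2 to 113), 68 (52.8 to 86.2) and 59 (44.9 to 76.1), over a local background that was at the genome-wide level in every library. The intervals of 633, 513 and 490 bp (place chr17:5342051-5342683) covered the start, with summits 74, 94 and 109 bp downstream. PHB and C1QBP are both on chromosome 17, and the median relative background of the other peaks within 1 Mb of C1QBP was 1.00 in each replicate, below the values around PHB.

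**Figure D2:**
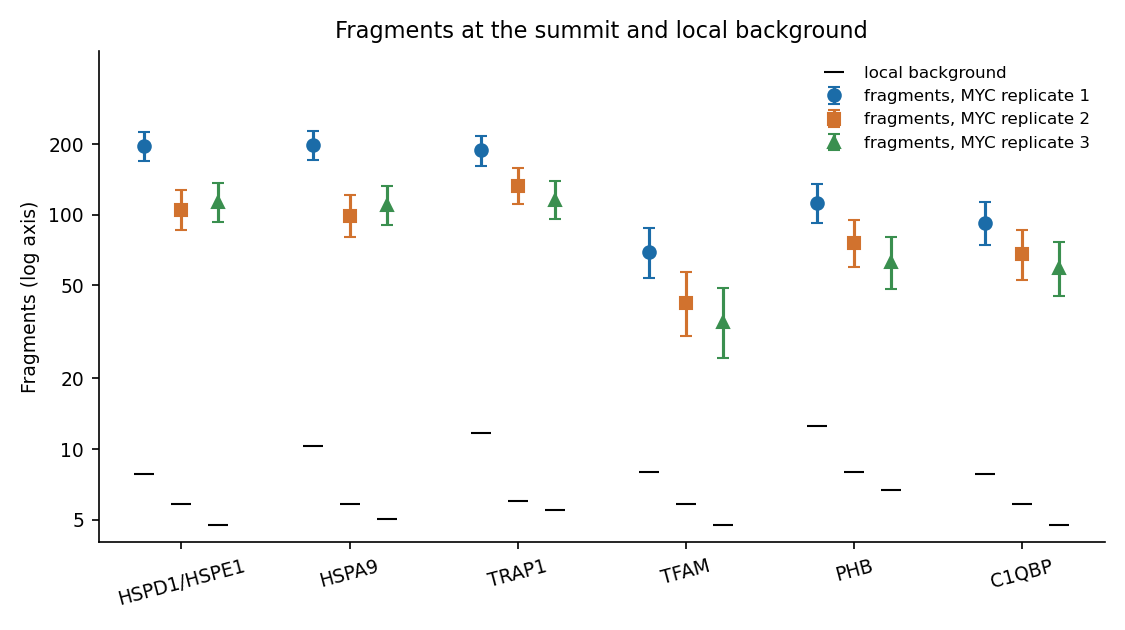
Fragments at the summit (markers with 95% exact Poisson intervals) and local background (dashes) at the 6 places in 3 MYC replicates, on a log axis. The chaperone places held 99 to 198 fragments and TFAM 35 to 69, while the background of PHB stood above that of C1QBP in every replicate.

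The 6 places were compared in 15 pairs. Of these, 13 had the same order of fold enrichment in all 3 replicates. The chaperone places were above C1QBP, PHB and TFAM in every replicate. The HSPD1/HSPE1 place exceeded TFAM by 1.50 ± 0.18 on the log2 scale (SD, n = 3), PHB by 1.18 ± 0.29 and C1QBP by 0.88 ± 0.24. HSPA9 exceeded C1QBP by 0.70 ± 0.15, and TRAP1 exceeded it by 0.73 ± 0.22, differences of at least 3.33 times their SD. The chaperone places differed from each other by about their spread or less. HSPD1/HSPE1 was above TRAP1 in 2 of 3 replicates (0.14 ± 0.45) and TRAP1 above HSPA9 in 1 of 3 (0.04 ± 0.32), and the difference of HSPD1/HSPE1 from HSPA9, although in the same order in all 3 replicates, was 0.18 ± 0.15. With 3 replicates the two-sided exact permutation test, which flips the signs of the differences within replicates, cannot go below p = 0.25, and the smallest adjusted p over the 15 pairs was 0.288 (Benjamini-Hochberg). No pair could therefore pass a threshold of 0.05.

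**Figure D3:**
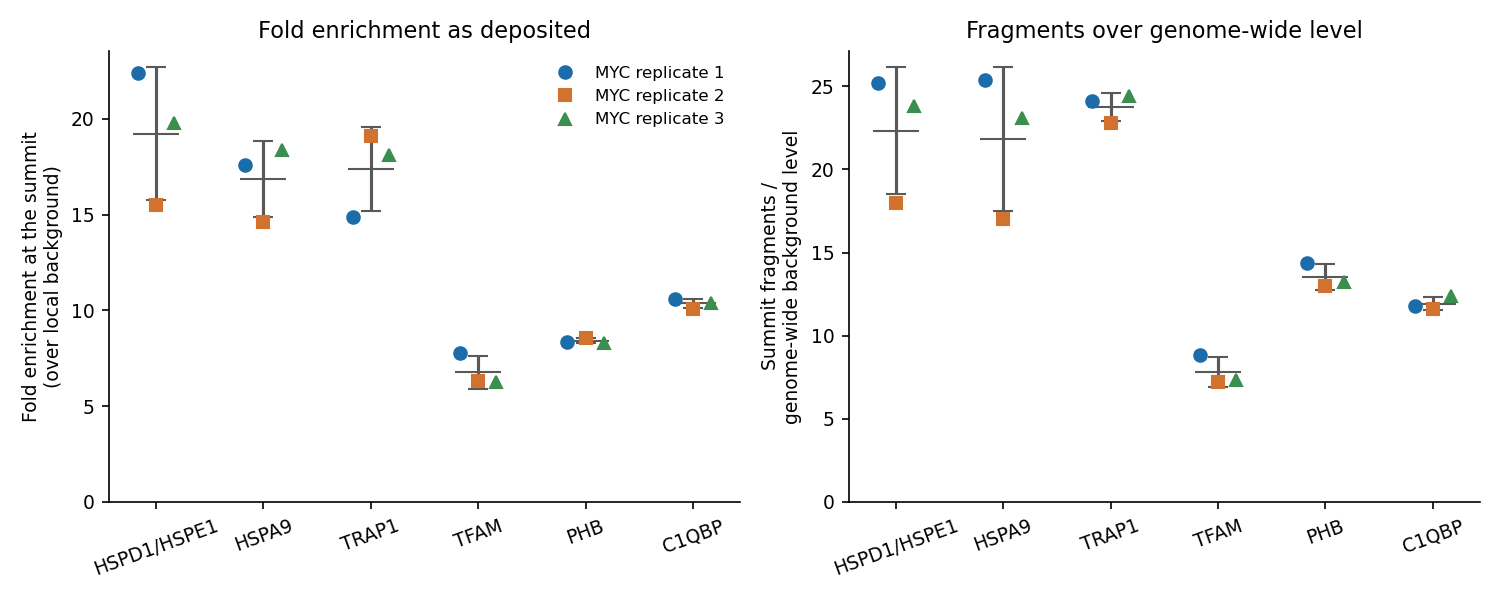
Fold enrichment as deposited (left) and summit fragments over the genome-wide background level (right) at the 6 places, with 1 point per MYC replicate, the mean (long bar) and SD (whiskers). The chaperone places lie above the other 3 in both panels, and PHB and C1QBP exchange their order between the panels.

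The order of PHB and C1QBP depended on the denominator. By fold enrichment C1QBP was above PHB in 3 of 3 replicates, by 0.30 ± 0.06 on the log2 scale (SD, n = 3). Over the genome-wide level, the summit fragments of PHB were 14.4, 13.0 and 13.2 times that level and those of C1QBP 11.8, 11.6 and 12.4 times, so PHB was above C1QBP in 3 of 3 replicates. On this scale HSPD1/HSPE1, HSPA9 and TRAP1 had means of 22.3 ± 3.81, 21.8 ± 4.38 and 23.8 ± 0.870 (SD, n = 3), and TFAM remained the lowest of the 6 places with 7.80 ± 0.920.

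**Figure D4:**
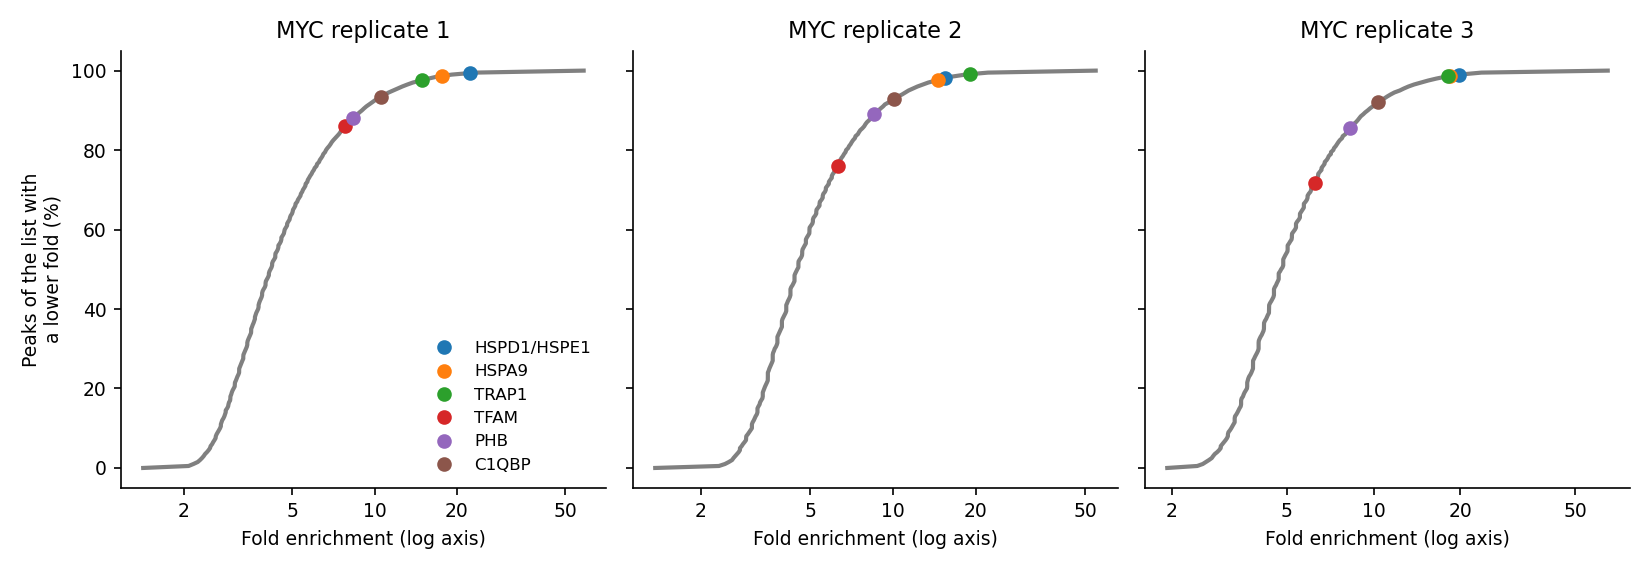
Share of all peaks in each MYC list with a lower fold enrichment (y axis, percent) against fold enrichment (x axis, log scale), with the 6 places marked on the curve. HSPD1/HSPE1, HSPA9 and TRAP1 lie at 97.6% or above in all 3 lists, and TFAM lies lowest, between 71.7% and 86.0%.

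Changes of fold enrichment between replicates at these genes were of the size seen elsewhere. From replicate 2 to replicate 1 the median ratio was 1.13 over the 6 places and 1.13 over the 14598 places shared by these lists. The lowest ratio, 0.780 at TRAP1, and the highest, 1.45 at HSPD1/HSPE1, both lay between the 5th and 95th percentiles of all shared places (0.730 and 1.65). Against replicate 3, the median ratio of replicate 1 was 1.01 at these places and 1.04 over all 14955 shared places.

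The surroundings of the starts differed. No other place lay within 100 kb of TRAP1, where the nearest was 106 kb away, was found in 2 replicates and had a geometric mean fold of 3.85. TFAM had 1 other place, 50.1 kb away, with a fold of 4.08. HSPD1/HSPE1 had 4 others, 3 of them in all 3 replicates, and the strongest of these was also the nearest, at 15.9 kb with 6.55. PHB had 5 others with folds of at most 5.82, and HSPA9 had 6, the strongest at 82.3 kb with 8.05. At 5 of the 6 places no stronger place found in all 3 replicates lay within 100 kb, which also held for 42.7% of all such places (5340 of 12499). These 6 places have higher folds than most, so this count is a description. C1QBP was the exception. A place 29.8 kb to the higher-coordinate side had a fold of 16.1 against 10.4 at C1QBP, and another 19.1 kb to the other side had 9.18. Which genes lie at these neighbouring places was not analysed here.

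**Figure D5:**
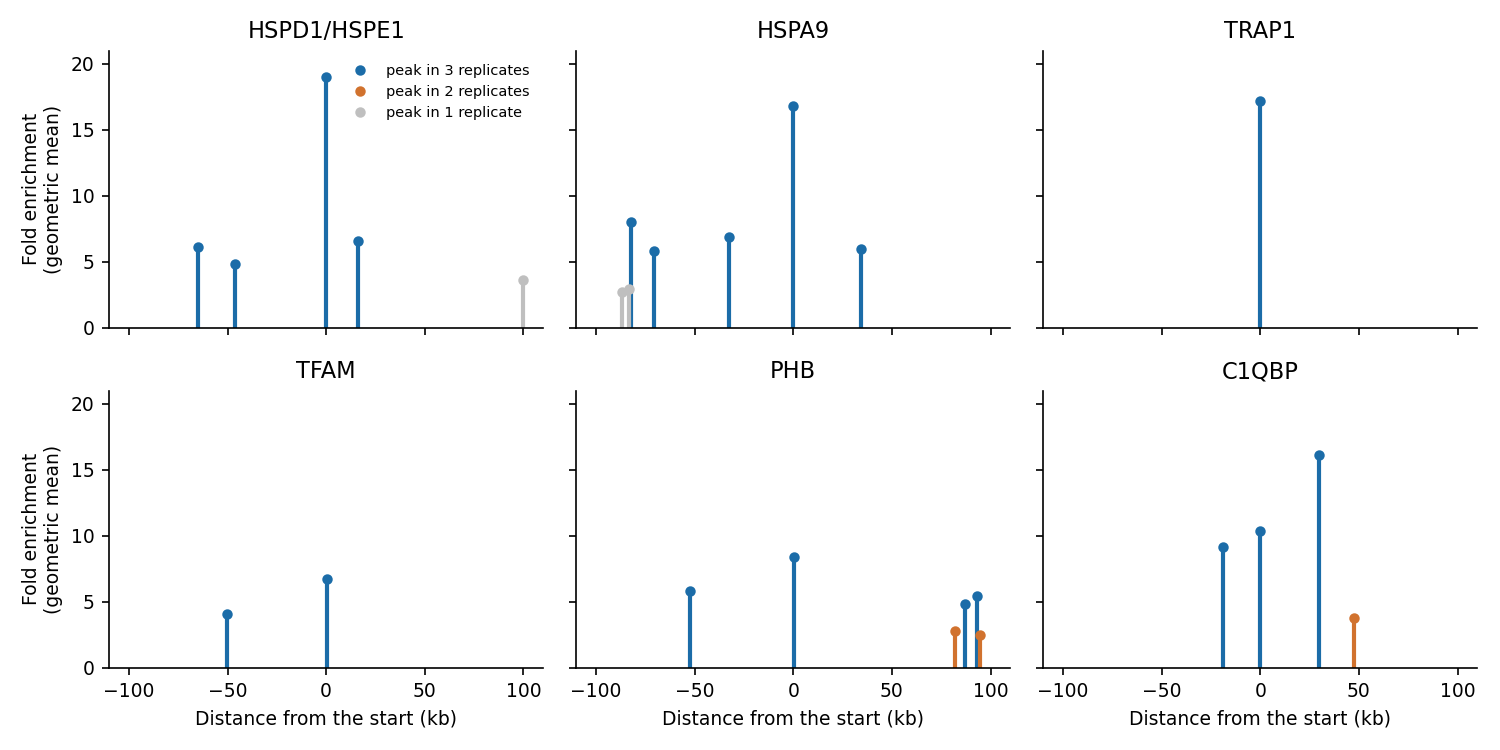
Geometric mean fold enrichment of every place within 100 kb of the 6 starts, against distance from the start in kb, coloured by the number of MYC replicates with a peak. TRAP1 stands alone, and C1QBP is the start with a stronger place nearby (16.1 at 29.8 kb).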

How the data were processed

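Per the labels and the study's methods, the authors aligned ChIP-seq reads to hg19 with Bowtie2 and called peaks in each of 3 MYC libraries with MACS2 at a q-value of 0.05. Versions, the control library and the treatment of duplicates are not given in these sources. The deposited fold enrichment is a ratio at the summit, with 1 added to both terms, unscaled between libraries. The deposited −log10 p-values and −log10 q-values are of the same summits, and the deposited score, 10 times the −log10 q-value cut to a whole number, was checked against that value and entered no result.

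Summit fragments and local background were recovered from the fold and p-value. A whole number matched within 0.001 for 100% of peaks in each list. The lowest background of a list was its genome-wide level. On simulated data 100% of 6000 summits were recovered, and 100% of 1000 places. The lists give no read totals, so depth was read from this level, and intervals cover counting error only. Peaks that shared 1 bp or more were joined as places, and 17350 places had peaks from at least 2 replicates, the consensus rule of the study. Places were compared by exact permutation tests over replicates, with Benjamini-Hochberg adjustment. Python 3.11.15, numpy 2.4.6, pandas 2.3.3, scipy 1.17.1 and matplotlib 3.10.9 were used.

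The 7 genes, their hg19 starts and all lists and motifs were chosen with earlier results of these data known. The text names these 7 genes, in the order of their roles, and any RefSeq gene that starts within 5000 bp of them. No gene was named for its fold. The annotation used here is of GRCh38, and positions were not converted. Peak sequences were therefore not read, and GRPEL1, DNAJA3, LONP1, CLPP, CLPX, AFG3L2, PHB2, TFB1M, TFB2M, POLRMT, POLG, TWNK, NRF1, GABPA, TIMM44 and TOMM40 were not placed. Alternatives were other windows around the start, q-value thresholds, denominators of the fold, rules of overlap and the leaving out of each replicate.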

Additional observations from a re-analysis of the deposited data

How the results depend on the processing

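The count of 7 genes could not fall with windows of 1000, 2000 and 10000 bp, q-values of at most 0.01 and 0.001, or without 1 replicate, since no summit was over 327 bp from a start and no −log10 q under 15.8, so these settings say nothing about its stability. The median fold enrichment of the 6 places, 13.6, became 15.6 with nothing added and 17.7 over the genome-wide level, which follows from the smaller denominators, and was 13.2 to 13.5 without 1 replicate. Of the 15 pairs, 13 had the same order in all replicates, against 12 over the genome-wide level, 12 by −log10 p and 13 to 15 without 1 replicate. These counts ask only whether the replicates share an order. The 12 over the genome-wide level thus include C1QBP and PHB, whose order was reversed in all 3 replicates. Over the genome-wide level the log2 ratio of C1QBP to PHB turned from 0.30 to -0.18 and that of HSPD1/HSPE1 to TRAP1 from 0.14 to -0.11. The mean fold moved by more than its SD at 5 of the 6 places with either denominator. Leaving out 1 of 3 replicates can never move a mean by more than its SD. That setting therefore says nothing about the stability of the means. Places found in all 3 replicates numbered 12499, and 10564 to 12028 under other rules of overlap or stricter q-values. No paired analysis was possible because the IgG libraries, which carry the same replicate numbers as MYC, were not analysed here. The comparisons between places were already made within replicates. The lowest count, 35 fragments at TFAM in replicate 3, has a 95% interval of 24.4 to 48.7.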
